A study of Mus musculus with 35 samples.

Results

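The genes described here are 44 mouse genes of S phase and DNA replication, taken by name out of the 54354 genes of the deposited table. All 44 names were found, each at a single gene. They comprise 10 genes of origin licensing, 6 of helicase activation, 9 polymerase and primase subunits, 7 genes of the sliding clamp and its loaders and 2 that join Okazaki fragments. The rest are the 3 subunits of the single-strand DNA binding protein RPA, 3 regulators of the G1/S transition and 4 genes of chromatin assembly and histone mRNA handling at the fork.

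A cell copies its genome once per cycle. In G1 the origin recognition complex, with the loaders Cdc6 and Cdt1, places the MCM helicase ring (Mcm2 to Mcm7) on DNA. At the onset of S phase cyclin E and its kinase, together with E2F transcription factors, drive entry, and Cdc45 and the GINS complex join the ring to make it an active helicase. Primase and DNA polymerase alpha start each strand, replication factor C loads the Pcna clamp, polymerases delta and epsilon extend, and Fen1 and Lig1 finish the lagging strand while RPA coats exposed single strands. In the colon this programme runs in the dividing cells of the crypt and in most tumour cells, and many of its genes carry E2F sites in their promoters.

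The material was RNA of mouse colon tumour organoids, three-dimensional epithelial cultures, of a genotype named only AKP in the labels and shared by all 35 libraries, controls included. Carmofur, an inhibitor of ceramidase that is also a prodrug of the thymidylate synthase inhibitor fluorouracil, was given to 15 libraries and compared with 12 control libraries of its own. Palmitic acid, the saturated fatty acid with which ceramide synthesis begins, was given to 3 libraries of batch 1 and 2 libraries of batch 2, and both were compared with the same 3 control libraries, which the labels place in neither batch. The sources used here give no dose, duration, vehicle or number of organoid lines. The study asked how levels of fatty acid and ceramide alter transcription in such organoids. No label states that libraries within a group were separate cultures, so a p-value here measures the spread between libraries, which may be technical.

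The carmofur libraries carry running numbers that fall into 3 blocks of 12 numbers, and each comparison with carmofur was made over all libraries and within each block. Block 1 holds carmofur replicates 1 to 6 and control replicates 1 to 3, block 2 holds carmofur replicates 7 to 12 and control replicates 4 to 6, and block 3 holds carmofur replicates 13 to 15 and control replicates 7 to 12. The labels do not call these blocks batches. Total counts ran from 3127275 to 10609563 with carmofur and from 1663750 to 8124707 in its controls. They ran from 2138905 to 2845017 with palmitic acid in batch 1, from 2406582 to 3742289 in batch 2 and from 762888 to 2511723 in the palmitic acid controls. Of 11 epithelial markers, all had a median level above 0, whereas only Vim of 10 mesenchymal markers, only Cd68 of 10 immune markers and only Pecam1 of 8 endothelial and blood markers did. Carmofur control 1 and carmofur replicates 8 and 10 stood apart in an earlier analysis of these data, and the counts below are also given without them.

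Promoter sequence is shown for the licensing genes because 2 of the 4 genes called over all carmofur libraries below belong to them. The E2F consensus was searched as TTTCCCGC, TTTGGCGC, TTTCGCGC or TTTGCCGC on both strands of the 300-base RefSeq promoters of GRCm38.p6 (250 bases before to 50 after the annotated start), and matches to it are in capitals. Of the 10 licensing genes, 9 had a promoter entry and 7 of those held a match.
Orc1: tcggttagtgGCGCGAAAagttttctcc
Cdc6: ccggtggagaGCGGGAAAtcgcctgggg
Cdt1: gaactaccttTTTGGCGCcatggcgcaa
Mcm3: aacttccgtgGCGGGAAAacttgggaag
Mcm5: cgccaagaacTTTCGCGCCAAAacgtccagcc
Mcm6: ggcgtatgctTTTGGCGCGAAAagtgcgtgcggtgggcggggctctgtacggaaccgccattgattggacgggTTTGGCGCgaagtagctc
Mcm7, upstream: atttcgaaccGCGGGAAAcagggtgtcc
Mcm7, downstream: ggtgacgacgTTTCGCGCcaatttcggt

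The Orc1 stretch lies on the plus strand at chr4:108579417-108579444, that of Cdc6 at chr11:98908003-98908030, that of Cdt1 at chr8:122568037-122568064 and that of Mcm5 at chr8:75109346-75109377. On the minus strand lie the stretches of Mcm3 (chr1:20820276-20820303), Mcm6 (chr1:128359735-128359825) and Mcm7 (chr5:138172031-138172058 upstream of the start and chr5:138171850-138171877 downstream of it). Those of Cdt1 and Mcm3 and the second of Mcm7 lie after the annotated start, and the others before it. In Mcm5, and in the first match of Mcm6, a pair of matches overlaps on opposite strands.

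Over all members, 35 had a promoter entry and 15 of them (42.9%) held the E2F consensus, against 2.61% of the 27025 genes with an entry and 5.05% of the 7747 of them that were tested with carmofur. Beside the licensing genes these were Gins3, Lig1, Pola1, Pold1, Pold3, Pole2, Rfc3 and Uhrf1. A CCAAT box, searched on both strands, can overlap these letters, as it does at the downstream match of Mcm7, and was present in 62.9% of the members and 41.1% of all entries. The mitosis genes used below for comparison held the E2F consensus in 1 of 17 promoters and a CCAAT box in 15 of 17. In the other lists used below, the E2F consensus was in 8 of 21 promoters of other G1/S regulators and 6 of 20 of replication-coupled chromatin and repair. It was in 6 of 25 of the other replication factors and 0 of 9 of deoxynucleotide supply, so it was not particular to the members. Entries were missing for Ccne2, Dscc1, Gins1, Gins2, Gins4, Mcm4, Pole, Prim2 and Rfc2. A match to these letters is a description of the promoter and does not show binding.

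The members differed widely in abundance. Levels are given in CPM, counts scaled to a common library size with edgeR's TMM factors, and between genes as CPM per kilobase of merged exon. In the 12 carmofur controls the most abundant per kilobase were Rpa3 (297 ± 55.3, SD), Rfc4 (258 ± 59.7) and Pcna (252 ± 26.3), whose order is within their spread, followed at a distance by Ccne2 (56.7 ± 17.5). By this measure, subunits that work together in fixed ratio did not have equal levels. Merged exons join all annotated transcripts of a gene and can exceed the length of the transcripts expressed. The order between genes therefore depends partly on the annotation. Within the MCM ring Mcm7 stood at 31.0 ± 4.81 CPM per kilobase, Mcm3 at 22.6 ± 7.39, Mcm4 at 19.4 ± 6.07, Mcm5 at 11 ± 3.63, Mcm6 at 8.05 ± 2.22 and Mcm2 at 5.22 ± 1.17. Among the clamp loader subunits Rfc4 stood far above Rfc3 (49.1 ± 12.9), Rfc1 (13.4 ± 3.85), Rfc2 (11.4 ± 5.52) and Rfc5 (3.19 ± 2.48). Exons of Rfc4 overlap those of Eif4a2 on the opposite strand. Whether the counting used strand is not stated, so part of the Rfc4 counts could belong to Eif4a2. The same limit holds for other members whose exons overlap a gene on the opposite strand. Among them are Ccne2 (Ints8), Rfc2 (Lat2), Fen1 (Tmem258), Orc6 (Vps35), Gins2 (Gse1) and Cdc45 (Ufd1).

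The lowest members per kilobase were Pola2, Dscc1, Pole, Gins3 and E2f1, all below 1 CPM per kilobase on average, and Chaf1a and Pold1 came next. Gins3 and Dscc1 each had no count in 11 of the 35 libraries, where 3 counts, the limit a count of 0 allows, would be 0.324 to 3.87 CPM for Gins3 and 0.367 to 1.79 CPM for Dscc1 in those libraries. Both failed the filter on low counts with carmofur, leaving 42 members tested, and Gins3 alone failed it with palmitic acid, leaving 43. In the fit by block all 44 were tested. Changes of these low members are therefore poorly resolved.

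**Figure D1:**
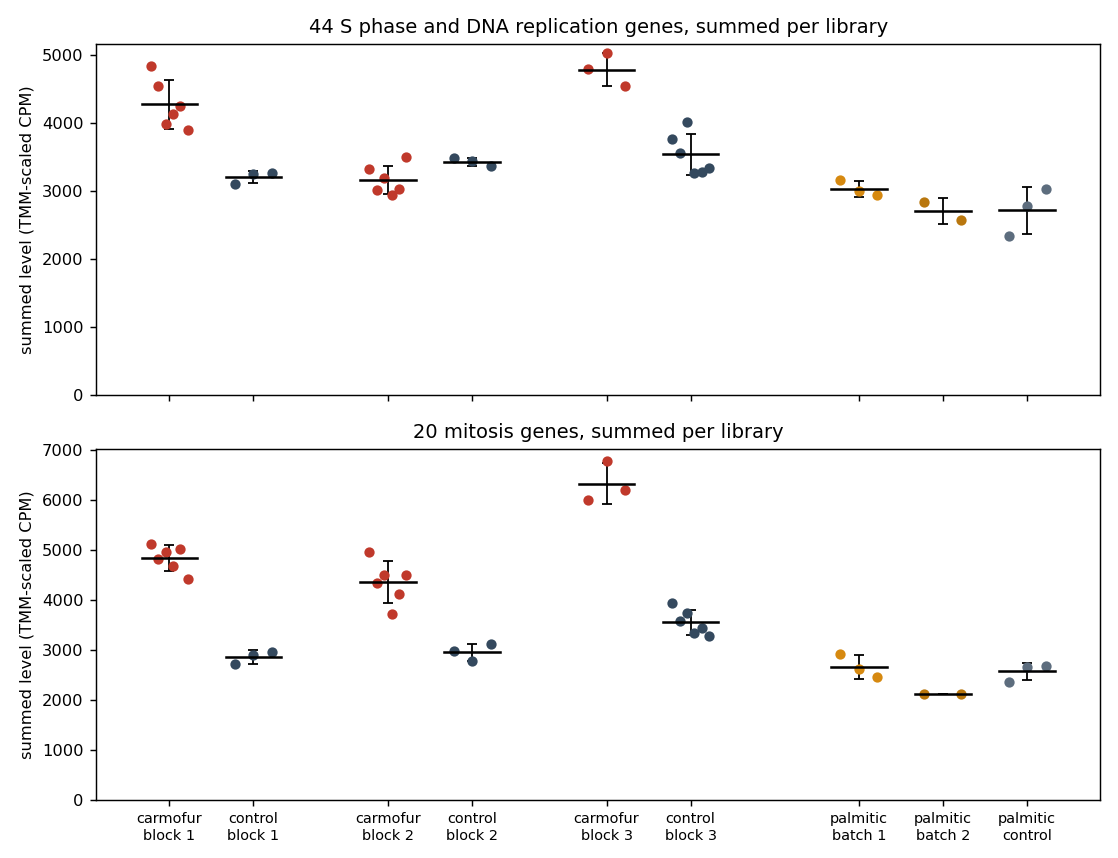
Summed level of the 44 replication genes (upper panel) and of 20 mitosis genes (lower panel) in each of the 35 libraries, in TMM-scaled CPM, with points for libraries, wide bars for group means and error bars for 1 SD. With carmofur the replication sum lay above every control in blocks 1 and 3 but below the control mean in 5 of 6 libraries of block 2, while the mitosis sum lay above every control of its block in all 15 carmofur libraries.

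With carmofur, the summed level of the replication genes was higher in blocks 1 and 3 and not in block 2. In block 1 the summed level ran from 3897 to 4837 CPM in the 6 carmofur libraries, against 3100 to 3261 CPM in the 3 controls, a ratio of means of 1.34. In block 3 it was 4796, 5029 and 4545 CPM in the 3 carmofur libraries, against 3266 to 4019 CPM in the 6 controls, a ratio of 1.35. In block 2 it ran from 2948 to 3494 CPM with carmofur and from 3372 to 3483 CPM in the controls, a ratio of 0.923. In blocks 1 and 3 every carmofur library exceeded every control of its block, and in block 2 5 of 6 lay below every control. The sums describe the libraries and were not tested. A change in the share of cycling cells and a change in RNA per cell cannot be told apart in such bulk samples.

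Over all 27 carmofur libraries, 33 of the 42 members tested had a positive log2 fold change, with a median of 0.32, where the median of all 9992 genes tested was 0.00. Only 4 passed the threshold, an adjusted p under 0.05 in the quasi-likelihood test of edgeR, Benjamini-Hochberg adjusted over all genes. Ccne2, Mcm3 and Cdc6 rose and Rpa3 fell. This share, 9.52%, is close to the 9.02% called among all genes (5.21% higher and 3.8% lower), so the count does not set the replication genes apart. At an unadjusted p under 0.05 there were 15 (35.7%), where 19.0% of all genes tested were. The 4 calls held when any single library was left out, and the count moved by more than 1.5 times, to 9, only without carmofur replicate 8. Without block 1 only Ccne2 and Rpa3 remained, without block 3 only Ccne2 and Cdc6, and without block 2 all 4 remained and 7 more passed (Chaf1b, Mcm10, Mcm4, Mcm5, Pola1, Rpa1 and Rpa2). Without the 3 libraries that stood apart 10 passed, and with counts summed over the 9 runs of 3 consecutive library numbers only Ccne2 did.

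Ccne2, which encodes cyclin E2, the partner of Cdk2 at S phase entry, had the firmest change. It is at chr4:11191351-11204779 on the plus strand (mm10), and its span overlaps Ints8 on the opposite strand. Its level with carmofur was 303, 376 and 425 CPM (lowest, median, highest) in block 1, against 210, 125 and 241 CPM in the controls. The block 2 values were 212, 307 and 365 CPM with carmofur, against 146, 198 and 319 CPM in the controls. In block 3 it was 341, 413 and 408 CPM with carmofur, against 131, 179 and 271 CPM (lowest, median, highest) in the controls. All 15 carmofur libraries lay above the median of the 12 controls and 11 above every control, and the groups overlapped only in block 2. Carmofur raised it by 0.80 ± 0.13 (SE) on the log2 scale in edgeR, with an adjusted p of 1.8e-05, and within blocks 0.95 ± 0.23 (adjusted p = 0.033), 0.40 ± 0.23 (0.36) and 1.0 ± 0.22 (0.0029). It passed under all 48 alternatives tried over all libraries.

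The other G1/S members were scarce. E2f1, a transcriptional activator of S phase genes, had 2.44, 6.87 and 10.5 CPM (lowest, median, highest) with carmofur in block 1 and 15.5, 13.6 and 11.5 CPM in block 3. Its controls had 0, 4.28 and 0.214 CPM in block 1 and 0.763, 3.22 and 7.92 CPM (lowest, median, highest) in block 3. The values were higher with carmofur in block 3 without overlap, and in block 1 the groups overlapped. Its log2 fold change over all libraries was 1.36 ± 0.63 (adjusted p = 0.21, edgeR), and that of Ccne1, the other cyclin E, was 1.19 ± 0.60 (0.27).

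**Figure D2:**
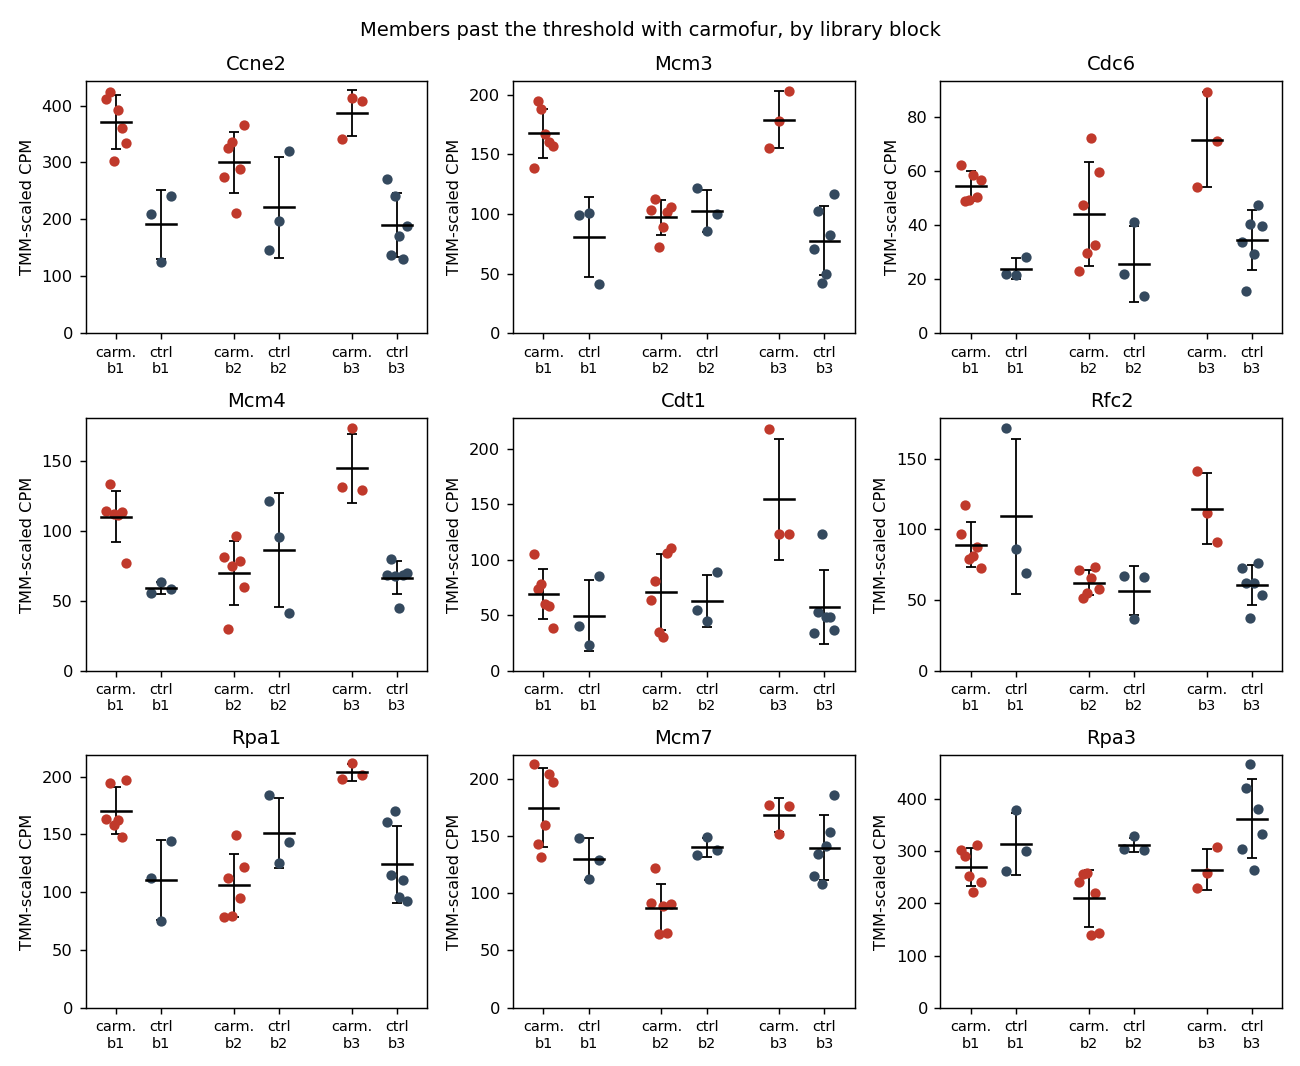
TMM-scaled CPM in each carmofur (carm.) and control (ctrl) library of blocks 1 to 3 (b1 to b3) for the 9 members past the threshold in any carmofur comparison, with bars for means and error bars for 1 SD. Ccne2, Mcm3 and Mcm4 stand above all controls in blocks 1 and 3, while Mcm7 in block 2 lies below all controls.

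Origin licensing, the largest role, had members past the threshold in several comparisons. Mcm3 and Cdc6 rose over all libraries, Mcm3 in block 1, and Mcm3, Mcm4 and Cdt1 in block 3, while Mcm7 fell in block 2. Of all genes tested, 9.02% were called over all libraries and 1.1%, 5.76% and 4.61% in blocks 1 to 3. The summed level of the 10 licensing genes was 815 to 973 CPM with carmofur in block 1, against 492 to 550 CPM in the controls, a ratio of 1.70. In block 3 it was 997 to 1057 CPM with carmofur, against 508 to 617 CPM in the controls, a ratio of 1.79. In block 2 it was 445 to 617 CPM with carmofur, against 558 to 643 CPM in the controls, a ratio of 0.927. All 10 genes had positive log2 fold changes over all libraries, in block 1 and in block 3, with medians of 0.51, 0.95 and 0.91, whereas 4 of 10 did in block 2, with a median of -0.07. The medians of all genes tested were 0.00, 0.08, -0.06 and 0.08 in the same comparisons.

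Mcm3, a subunit of the helicase ring, had 138, 195, 188, 167, 160 and 157 CPM with carmofur in block 1, against 99.4, 101 and 41.8 CPM in the controls. In block 3 it had 156, 178 and 203 CPM with carmofur, against 42.6, 76.8 and 117 CPM (lowest, median, highest) in the controls. Block 2 showed 72.1, 102 and 113 CPM (lowest, median, highest) with carmofur, against 122, 86.2 and 100 CPM in the controls. The groups did not overlap in blocks 1 and 3 and overlapped almost wholly in block 2. Its log2 fold change was 0.75 ± 0.18 over all libraries (adjusted p = 0.0031, edgeR), 1.06 ± 0.27 in block 1 (0.048), -0.10 ± 0.26 in block 2 and 1.17 ± 0.25 in block 3 (0.0026). The block 1 call was lost in 18 of 34 alternatives, and the block 3 call in none.

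Cdc6, which loads the ring onto the origin, had 49.1, 53.5 and 62.2 CPM (lowest, median, highest) with carmofur in block 1, against 22, 21.6 and 28.3 CPM in the controls, and 54.3, 89.3 and 71.1 CPM with carmofur in block 3, against 15.9, 36.8 and 47.5 CPM in the controls. Block 2 showed 23.1, 40.1 and 72.1 CPM with carmofur, against 21.9, 41.2 and 13.7 CPM in the controls. The groups were apart in blocks 1 and 3 and overlapped in block 2. The log2 fold change was 0.86 ± 0.22 over all libraries (adjusted p = 0.0059, edgeR), and 1.17 ± 0.39, 0.76 ± 0.38 and 1.03 ± 0.35 in blocks 1 to 3, with adjusted p from 0.097 to 0.29.

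Cdt1, which acts with Cdc6, and Mcm4 passed only within block 3. Cdt1 had 218, 123 and 123 CPM with carmofur there, against 33.8, 48.5 and 124 CPM (lowest, median, highest) in the controls, and a log2 fold change of 1.41 ± 0.40 (adjusted p = 0.033, edgeR). One control, replicate 9, was as high as the lower carmofur libraries, and the call was lost without carmofur replicate 13 (adjusted p = 0.22) or any one of control replicates 7, 8, 10, 11 and 12. Mcm4 had 131, 173 and 129 CPM with carmofur there, against 44.7, 68.3 and 80.0 CPM in the controls, and a log2 fold change of 1.09 ± 0.27 (adjusted p = 0.012, edgeR), lost without carmofur replicate 14 (0.092). In block 1 Mcm4 was also apart, at 76.7, 112 and 133 CPM with carmofur and 55.4, 63.6 and 58.5 CPM in the controls, without passing the test (adjusted p = 0.18).

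Mcm2, Mcm5 and Mcm6 of the ring gave no call. Mcm2 and Mcm6 stood above every control in block 1, with log2 fold changes of 1.02 ± 0.37 and 1.27 ± 0.47 that did not pass (adjusted p = 0.25 each), and at 0.28 and 0.26 in block 3. Mcm5 stood above every control in block 3 (1.18 ± 0.36, adjusted p = 0.051) and at 0.59 in block 1. Orc6 and Orc1, subunits of the origin recognition complex, had log2 fold changes of 0.40 ± 0.17 (adjusted p = 0.16) and 0.48 ± 0.57 (0.75) over all libraries.

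Mcm7, like Rpa3 below, fell in block 2. There it had 91.9, 122, 64.6, 88.9, 65.3 and 90.9 CPM with carmofur, against 133, 149 and 138 CPM in the controls, a log2 fold change of -0.71 ± 0.20 (adjusted p = 0.026, edgeR). All 6 carmofur libraries lay below all 3 controls. In block 1 it had 132, 178 and 213 CPM (lowest, median, highest) with carmofur, against 148, 112 and 129 CPM in the controls, and in block 3 177, 152 and 176 CPM with carmofur, against 108, 138 and 186 CPM in the controls. There it was on average higher with carmofur and the groups overlapped, with log2 fold changes of 0.43 ± 0.21 and 0.24 ± 0.20. Its span at chr5:138164583-138172422 overlaps Ap4m1 and Cops6 on the opposite strand. Whether the counting used strand is not stated, so part of its counts could belong to them. The fall in block 2 did not pass without any one of control replicates 4, 5 and 6 or carmofur replicates 9 and 11 (adjusted p = 0.076, 0.14, 0.084, 0.059 and 0.064).

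**Figure D3:**
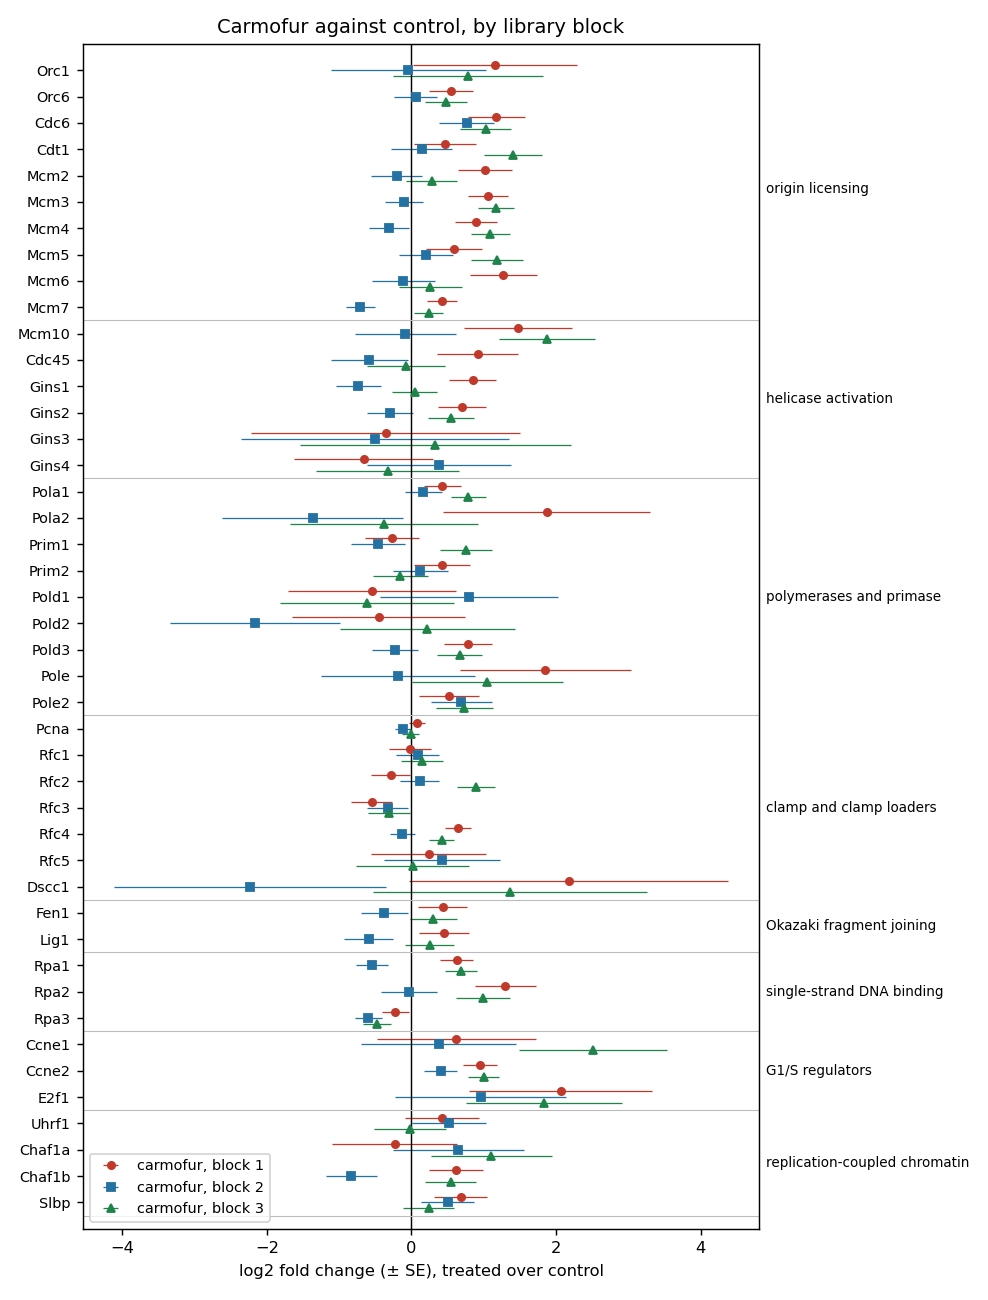
Log2 fold change of carmofur over control for each of the 44 members, ordered by role, in block 1 (circles), block 2 (squares) and block 3 (triangles), with error bars for 1 standard error from the fit by block. Most points of blocks 1 and 3 lie right of 0, while those of block 2 scatter around it, with Mcm7, Gins1, Rpa1, Rpa3 and Chaf1b among those to the left.

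The genes that turn the loaded ring into a moving helicase gave no call. Mcm10, a scaffold for this step, had the lowest p of the 6. It had 15.3, 37.5 and 58.3 CPM (lowest, median, highest) with carmofur in block 1, against 17.9, 15.5 and 7.29 CPM in the controls, and 88.6, 50.7 and 34.5 CPM with carmofur in block 3, against 7.94, 15.7 and 24.3 CPM in the controls. In block 2 it ran from 0.970 to 31.1 CPM with carmofur and from 1.74 to 20.2 CPM in the controls. The values were apart in block 3 only. Over all libraries edgeR put its change at 1.14 ± 0.43 on the log2 scale (adjusted p = 0.10), and it passed in 6 of 48 alternatives, among them those without carmofur replicate 8, without replicate 11 or without block 2.

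Gins1, a subunit of the GINS complex, had estimates of opposite sign in blocks 1 and 2. It had 50.7, 84.1 and 117 CPM (lowest, median, highest) with carmofur in block 1, against 32.7, 68.1 and 37.1 CPM in the controls, and 26.8, 64.1 and 70.5 CPM with carmofur in block 2, against 90.2, 82.5 and 111 CPM in the controls. All carmofur libraries of block 2 lay below the controls, and the groups of block 1 overlapped. The log2 fold changes were 0.85 ± 0.33, -0.73 ± 0.31 and 0.04 ± 0.31 in blocks 1 to 3, none past the threshold (adjusted p = 0.28, 0.18 and 0.98, edgeR), and the difference between blocks had an adjusted p of 0.17. Cdc45, Gins2 and Gins4 had no unadjusted p under 0.05 over all libraries, nor did Gins3 in any block, where alone it was tested with carmofur.

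The polymerase and primase subunits also gave no call. Their sum was 497 to 556 CPM with carmofur in block 3, against 285 to 449 CPM in the controls, and 382 to 439 CPM with carmofur in block 1, against 295 to 338 CPM in the controls, ratios of 1.53 and 1.31. In block 2 the ratio was 1.03. Pola1, the catalytic subunit of polymerase alpha, came nearest. It had 168, 178 and 138 CPM with carmofur in block 3, above 59.2, 94.3 and 127 CPM (lowest, median, highest) in the controls, and overlapped its controls in blocks 1 and 2. Its log2 fold change was 0.44 ± 0.15 over all libraries (adjusted p = 0.051, edgeR), and 12 of the 48 alternatives brought it past the threshold. Pole2, an accessory subunit of polymerase epsilon, stood at 0.61 ± 0.22 (adjusted p = 0.075), and Pola2, Prim1, Prim2, Pold2 and Pold3 lay between -0.35 (Pold2) and 0.33 (Pold3), with adjusted p of 0.40 and above. Within blocks, Pold3 stood above every control in blocks 1 and 3 without passing (0.79 ± 0.33 and 0.67 ± 0.31, adjusted p = 0.34 and 0.26, edgeR). In block 2 it was at -0.23. The other catalytic subunits, Pold1 of polymerase delta and Pole of polymerase epsilon, were too low to resolve, with standard errors above 1 on the log2 scale within blocks.

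Among the clamp and its loaders, Pcna, the sliding clamp itself, had 478, 570 and 731 CPM (lowest, median, highest) over the 15 carmofur libraries and 462, 621 and 694 CPM over the 12 controls, which overlapped throughout. Its log2 fold changes were 0.08, -0.12 and -0.01 in blocks 1 to 3, and it has the pseudogenes Pcna-ps1 and Pcna-ps2, which could share its reads. Rfc2, a clamp loader subunit, was the 1 call of this role. In block 3 it had 141, 112 and 91.2 CPM with carmofur, against 37.3, 61.8 and 76.5 CPM in the controls, a log2 fold change of 0.89 ± 0.26 (adjusted p = 0.041, edgeR). In blocks 1 and 2 it was at -0.29 and 0.11. The call was lost without carmofur replicate 13 or 14 or any of control replicates 8, 9, 10 and 12 (adjusted p from 0.054 to 0.23).

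Rfc4, the most abundant loader subunit, had 399, 497 and 559 CPM (lowest, median, highest) with carmofur in block 1, above 349, 268 and 316 CPM in the controls. Its log2 fold change there was 0.65 ± 0.18 (adjusted p = 0.066, edgeR), and it passed with DESeq2 and 4 other alternatives. In blocks 2 and 3 Rfc4 was at -0.12 and 0.42, and over all libraries at 0.21 (adjusted p = 0.79, 0.18 and 0.43, edgeR). Rfc3 went the other way, at 66.8, 120 and 214 CPM over the 15 carmofur libraries and 92.7, 166 and 259 CPM over the 12 controls, a log2 fold change of -0.42 ± 0.15 (adjusted p = 0.083). Its groups overlapped in every block. Rfc1, Rfc5 and Dscc1, part of an alternative loader, had no unadjusted p under 0.05 in any carmofur comparison in which they were tested.

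The 3 RPA subunits, which act as 1 complex on single-stranded DNA, gave 1 call over all libraries. Rpa3, the small subunit, fell. It had 139, 253 and 311 CPM (lowest, median, highest) over the 15 carmofur libraries and 262, 317 and 468 CPM over the 12 controls, and 11 carmofur libraries lay below every control. The log2 fold change was -0.46 ± 0.11 (adjusted p = 0.0045, edgeR), and within blocks -0.22 ± 0.19, -0.60 ± 0.19 (adjusted p = 0.049) and -0.48 ± 0.19 (0.18). The call over all libraries ended without block 3 (adjusted p = 0.17), and that within block 2 held in 9 of 34 alternatives.

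Rpa1, the large subunit, is the member whose carmofur effect passed the test of a difference between blocks. It had 147, 163 and 197 CPM (lowest, median, highest) with carmofur in block 1, against 112, 75.0 and 144 CPM in the controls, and 198, 212 and 202 CPM with carmofur in block 3, against 92.4, 113 and 170 CPM in the controls. In block 2 it had 78.2, 104 and 149 CPM with carmofur, against 184, 125 and 144 CPM in the controls. It was above every control in blocks 1 and 3 and mostly below the controls in block 2. The log2 fold changes were 0.63 ± 0.23, -0.54 ± 0.22 and 0.68 ± 0.22, none past the threshold alone (adjusted p = 0.25, 0.17 and 0.064). The test of the difference between the 3 blocks gave an adjusted p of 0.043 (edgeR), which stayed under 0.05 in 16 of 34 alternatives.

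Rpa2, the middle subunit, had 45.3, 101 and 119 CPM (lowest, median, highest) with carmofur in block 1, against 8.34, 66.0 and 38.0 CPM in the controls, and 128, 130 and 84.3 CPM with carmofur in block 3, against 37.4, 55.4 and 82.0 CPM in the controls. The block 3 groups were apart, by a small margin. Over all libraries the estimate was 0.68 ± 0.23 on the log2 scale (edgeR, adjusted p = 0.060), and it passed with DESeq2. Taking the complex as a sum, the 3 subunits stood at 345 to 410 CPM with carmofur in block 2, below 485 to 560 CPM in the controls, a ratio of 0.721.

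Fen1, the nuclease that trims Okazaki fragments, had 85.9, 132 and 147 CPM (lowest, median, highest) with carmofur in block 1, against 99.4, 92.7 and 89.0 CPM in the controls, and did not pass in any block. Lig1, the ligase that seals them, had log2 fold changes of 0.45, -0.59 and 0.25 in blocks 1 to 3, none with an unadjusted p under 0.05. Among the chromatin genes the lowest p was that of Slbp, which binds the stem-loop of histone mRNA. It had 25.1, 55.2 and 74.3 CPM over the 15 carmofur libraries and 16.1, 38.5 and 74.8 CPM over the 12 controls, a log2 fold change of 0.44 ± 0.19 (adjusted p = 0.18, edgeR). Chaf1b, a subunit of the chromatin assembly factor CAF-1, stood above every control in block 1 and at -0.83 ± 0.36 in block 2 (adjusted p = 0.20), while Chaf1a and Uhrf1 had no unadjusted p under 0.05.

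By block, the calls among the 44 members were 2 in block 1 (Ccne2 and Mcm3, higher), 2 in block 2 (Mcm7 and Rpa3, lower) and 5 in block 3 (Mcm3, Ccne2, Mcm4, Cdt1 and Rfc2, higher). As shares of the members these are 4.55%, 4.55% and 11.4%, where 1.1%, 5.76% and 4.61% of all 13123 genes were called. Of all genes, 0.503%, 3.13% and 2.8% were called higher and 0.594%, 2.63% and 1.81% lower. Without overlap between groups, 10 members lay above the controls and 0 below in block 1, 0 above and 3 below in block 2, and 13 above and 0 below in block 3. Among all genes the shares above were 3.79%, 5.39% and 6.48% and the shares below 2.97%, 3.69% and 4.31%. The median log2 fold change of the members was 0.60, -0.11 and 0.51, against 0.08, 0.08 and -0.06 over all genes, and 34, 18 and 35 of 44 were positive. The median of block 2 turned to 0.04 without control replicate 4.

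Only Rpa1 passed the test of a difference between blocks, 2.27% of the members where 1.07% of all genes did. Next were Mcm7 (adjusted p = 0.060, edgeR), Mcm3 and Mcm4 (0.096 each), and DESeq2 called 5 (Gins1, Mcm3, Mcm4, Mcm7 and Rpa1). The within-block calls rest on 3 libraries in at least 1 arm and are fragile. Leaving out single libraries gave 0 to 3 calls in block 1, 0 to 2 in block 2, 3 to 8 in block 3 and 0 to 2 for the difference. In block 1 no call was left without control replicate 1 or 2 or carmofur replicate 2 or 4, and in block 2 none without control replicate 4, 5 or 6 or carmofur replicate 11. Without the 3 libraries that stood apart there were 0, 1 and 9 calls in blocks 1 to 3 and 2 for the difference.

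The summed immune marker level also varied by block, with overlap of the groups in each block. It was 7.36 to 35.4 CPM with carmofur in block 1, against 26.8 to 52.6 CPM in the controls, 54.9 to 166 CPM with carmofur in block 2, against 35.1 to 93.2 CPM in the controls, and 7.88 to 83.1 CPM with carmofur in block 3, against 28.7 to 62.3 CPM in the controls. Of the 10 markers only Cd68, a lysosomal protein not limited to macrophages, had a median above 0, while Cd3e, Adgre1, Csf1r and Tyrobp were at 0 in all 35 libraries and Ptprc in 32. The mesenchymal sum ran from 8.80 to 22.4 CPM with carmofur in block 1, against 19.5 to 32.0 CPM in the controls. In block 2 it ran from 16.9 to 78.3 CPM with carmofur and from 24.9 to 68.5 CPM in the controls, and in block 3 from 9.72 to 16.0 CPM with carmofur and from 3.78 to 54.1 CPM in the controls. Of the epithelial markers, Krt20 rose in blocks 2 and 3 (log2 fold changes 7.96 ± 1.17 and 2.68 ± 0.64, adjusted p = 1.5e-05 and 0.0080, edgeR). Its effect also passed the test of a difference between blocks (0.048), at a median of 6.66 CPM and no count in 4 libraries. Cldn3 fell in block 3 (-1.51 ± 0.42, 0.030), and no other epithelial marker was called with carmofur. The part of these marker levels in the block pattern of the members was not tested.

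The genes around the replication machinery were counted in 5 lists of related genes. Among 11 genes of deoxynucleotide supply, Rrm2, the regulated subunit of ribonucleotide reductase, rose in every block, with log2 fold changes of 1.08 ± 0.23, 0.83 ± 0.23 and 1.38 ± 0.21 (adjusted p = 0.010, 0.024 and 3.4e-05, edgeR). Its levels were 514, 730 and 1067 CPM (lowest, median, highest) with carmofur in block 1 and 1134 to 1235 CPM in block 3, against 263 to 490 CPM and 353 to 537 CPM in their controls. In block 2 they were 425, 666 and 781 CPM with carmofur, against 241 to 557 CPM in the controls. Tyms, the thymidylate synthase that fluoropyrimidines inhibit, fell in block 2 (-0.45 ± 0.12, adjusted p = 0.017) and rose in block 3 (0.56 ± 0.12, 0.0026).

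Nme1, a nucleoside diphosphate kinase, did the same as Tyms (-0.59 ± 0.12, adjusted p = 0.00096, in block 2 and 0.54 ± 0.12, 0.0029, in block 3, edgeR). Dctpp1, which removes modified deoxycytidine triphosphates, fell in block 2 (-0.80 ± 0.19, 0.0058). All 3 passed the test of a difference between blocks (adjusted p = 0.0014, 0.00019 and 0.0049 for Tyms, Nme1 and Dctpp1). Of the 11, 1 was called over all libraries, a share of 9.09% where 9.02% of all genes were called. In blocks 1 to 3 the calls were 1, 4 and 3, or 9.09%, 36.4% and 27.3%, where 1.1%, 5.76% and 4.61% of all genes were called.

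Of 29 tested other replication factors, Pold4, a small subunit of polymerase delta, and Ticrr, which helps activate the helicase, rose over all libraries (log2 fold changes 0.94 ± 0.22 and 0.91 ± 0.17, adjusted p = 0.0034 and 0.00013, edgeR), and none fell. Of 28 other G1/S regulators Ccnd3, a D-type cyclin, Cdk2 and Cks1b, a Cdk subunit, rose (0.97 ± 0.13, 1.03 ± 0.33 and 0.30 ± 0.09, adjusted p = 1.3e-06, 0.036 and 0.028), and none fell over all libraries. Within blocks, Cdk4, a partner of the D-type cyclins, fell in block 2 (-0.81 ± 0.19, adjusted p = 0.0042, edgeR) and Orc3, an origin recognition subunit of the replication factor list, fell in block 3 (-1.07 ± 0.31, 0.037). Of 25 genes of replication-coupled chromatin and repair Brca1 and its partner helicase Brip1 rose (1.16 ± 0.38 and 0.94 ± 0.29, adjusted p = 0.045 and 0.035), and none fell. These shares, 6.90%, 10.7% and 8.0%, lie near the 9.02% of all genes.

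The 20 mitosis genes, whose products act after replication, gave the highest share of calls among the lists over all libraries, though not in block 2. Over all libraries 9 rose and none fell, 45.0% of the list. They were led by Kif20a, a kinesin of cytokinesis (1.3 ± 0.14, adjusted p = 1.1e-08, edgeR), Nusap1, a spindle protein (0.81 ± 0.10, 6.1e-08), and Ccnb1, cyclin B1 (0.73 ± 0.10, 1.6e-06). Their summed level was 4427 to 5131 CPM with carmofur in block 1, against 2710 to 2968 CPM in the controls, 3712 to 4961 CPM with carmofur in block 2, against 2776 to 3116 CPM in the controls, and 6014 to 6793 CPM with carmofur in block 3, against 3274 to 3947 CPM in the controls. Every carmofur library exceeded every control of its block, with ratios of 1.69, 1.47 and 1.78, where the replication genes had 1.34, 0.923 and 1.35. This contrast of the lists is a description and was not tested.

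Members with and without the E2F consensus were also counted apart. With it, 12 of 14 tested members were positive over all libraries with a median log2 fold change of 0.42, and without it 14 of 20 with a median of 0.27. The medians with and without it were 0.47 and 0.62 in block 1, -0.04 and -0.12 in block 2, and 0.67 and 0.36 in block 3, so that the order turned round in block 1. Among the 4 genes called over all libraries, Mcm3 and Cdc6 held the consensus, Rpa3 did not, and Ccne2 had no entry.

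With palmitic acid no replication gene passed the threshold. In batch 1 none of 43 did, where 0.559% of all 9845 genes did, and 2 (4.65%) had an unadjusted p under 0.05, where 7.73% of all genes had. In batch 2 none of 43 did, where 0.325% of all genes did, and 1 (2.33%) had an unadjusted p under 0.05, where 7.10% of all genes had. DESeq2 called none in either batch. The summed level was 3166, 3002 and 2937 CPM in batch 1 and 2841 and 2566 CPM in batch 2, against 2338, 2778 and 3030 CPM in the controls, with overlap in both. Median log2 fold changes were 0.18 and 0.06, against 0.01 and -0.01 over all genes, and 31 and 23 of 43 were positive. Single libraries moved these medians: that of batch 1 ran from 0.07 (without control replicate 1) to 0.25, and that of batch 2 turned to -0.13 without its replicate 1. Both batches share their controls, of which replicate 1 was the shallowest library of the series and had the lowest sum.

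**Figure D4:**
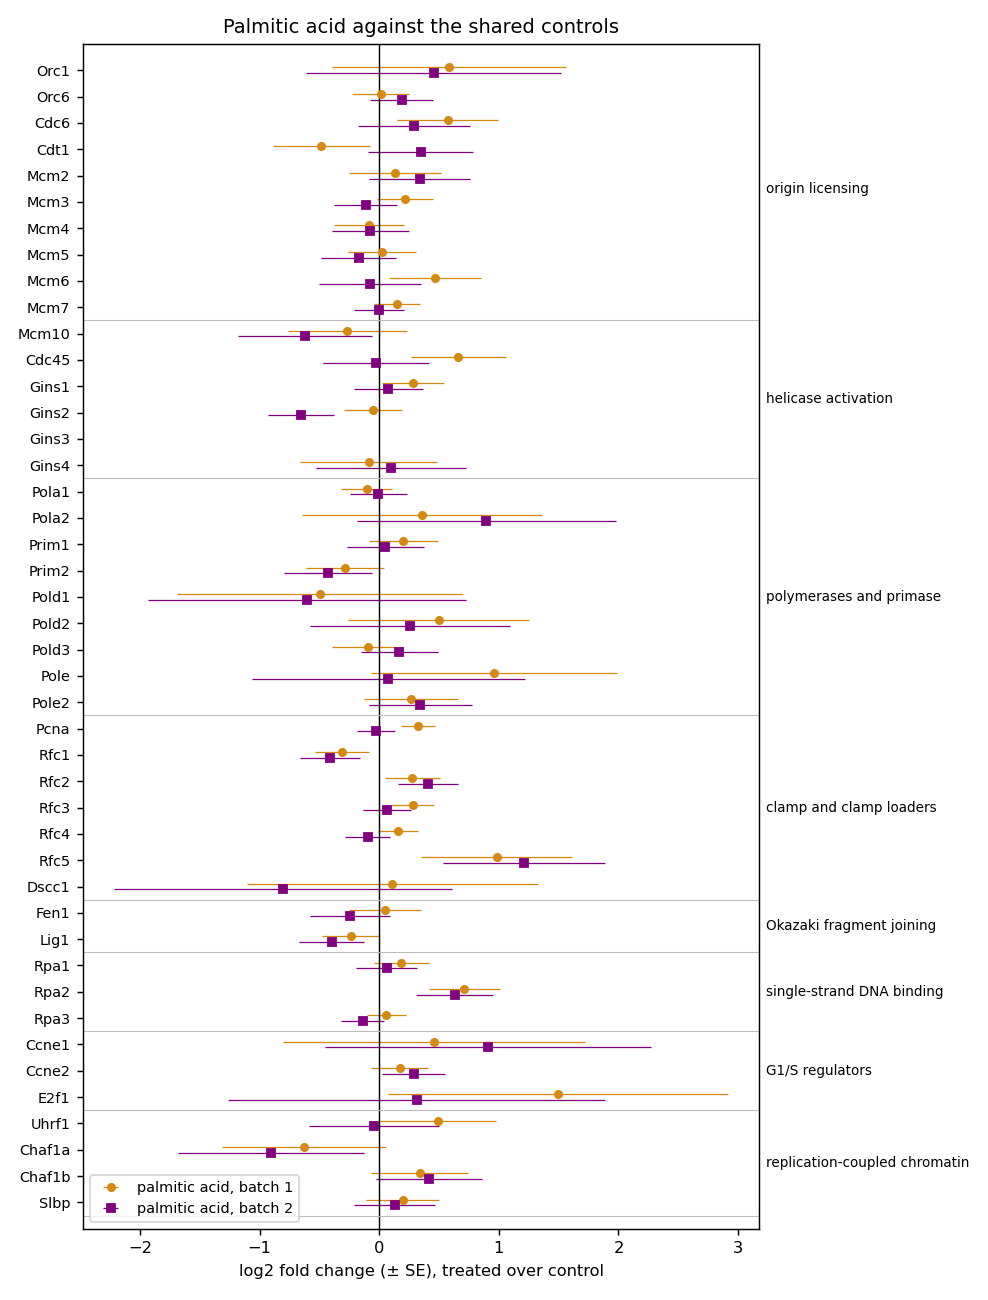
Log2 fold change of palmitic acid batch 1 (circles) and batch 2 (squares) over the 3 shared control libraries for the 43 members tested, ordered by role, with error bars for 1 standard error. None passed the threshold, and Rpa2 and Rfc5 lie right of 0 in both batches.

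The lowest p in batch 1 was that of Rpa2, with 63.3, 66.9 and 48.6 CPM in batch 1 and 60.9 and 51.6 CPM in batch 2, against 23.2, 41.9 and 40.9 CPM in the controls. All treated libraries lay above the controls, with log2 fold changes of 0.71 ± 0.30 (adjusted p = 0.49, edgeR) and 0.63 ± 0.32 (0.71). Rfc5 had 19.8, 11 and 11.5 CPM in batch 1 and 18.4 and 14.6 CPM in batch 2, against 2.58, 6.66 and 10.8 CPM in the controls, also without overlap (0.98 ± 0.63 and 1.21 ± 0.68, adjusted p = 0.77 and 0.76). Pcna had 622, 602 and 585 CPM in batch 1 and 503 and 441 CPM in batch 2, against 379, 414 and 646 CPM in the controls. Its log2 fold change in batch 1 was 0.32 ± 0.14 (adjusted p = 0.57), and it passed when control replicate 3, the high one, was left out. Cdc45 had 38.8, 34.0 and 28.8 CPM in batch 1 and 24.4 and 17.5 CPM in batch 2, against 20.6, 22.7 and 20.7 CPM in the controls (0.66 ± 0.40 in batch 1, adjusted p = 0.74).

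Gins2, another GINS subunit, had the lowest p in batch 2. It had 87.5, 82.5 and 74.5 CPM in batch 1 and 51.7 and 55.8 CPM in batch 2, against 81.2, 63.1 and 109 CPM in the controls, so that batch 2 lay below both other groups (-0.66 ± 0.28, adjusted p = 0.55, edgeR). Rfc1, the large loader subunit, had 78.4, 88.1 and 95.2 CPM in batch 1 and 70.7 and 92.4 CPM in batch 2, against 138, 111 and 79.6 CPM in the controls, with overlap. Between the batches themselves none of 43 members passed, where 0.102% of all genes did (0.0609% higher in batch 2 and 0.0406% lower), and 2 (Gins2 and Pcna, 4.65%) had an unadjusted p under 0.05, where 2.37% of all genes had. Cdt1 was apart between them, at 34.9 and 35.8 CPM in batch 2 and 22.4, 25.8 and 11.1 CPM in batch 1, with an adjusted p of 1.0 (edgeR). Without overlap between the batches, 1 member (Cdt1) lay above and 7 below in batch 2, where 7.78% and 8.7% of all genes did. Without overlap with the controls, 6 of the 43 lay above and 0 below in batch 1, where 6.92% and 6.12% of all genes did, and 4 above and 3 below in batch 2, where 10.9% and 9.02% did.

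None of the 5 lists of related genes held a call with palmitic acid. Among the 20 mitosis genes 2 were positive in batch 2 with a median log2 fold change of -0.33, none past the threshold, and their summed level there was 2118 and 2119 CPM, against 2369 to 2683 CPM in the controls. In batch 1 that sum was 2456 to 2911 CPM. The direct comparison of the treatments, the carmofur effect minus the effect of palmitic acid batch 1, called none of the 44 members, where 0.69% of all genes were called, and none had an unadjusted p under 0.05, where 6.68% of all genes had. The lowest p were those of Ccne2 (0.64 ± 0.32, adjusted p = 0.75, edgeR), Rfc3 (-0.69 ± 0.34, 0.75), Rpa3 (-0.51 ± 0.27, 0.79) and Pcna (-0.37 ± 0.19, 0.79). For the members, then, the responses to carmofur and to palmitic acid were not shown to differ, nor to be alike. Of the related lists, Cenpf (mitosis) and Ccnd3 (other G1/S regulators) were called in the direct comparison. Their log2 differences were 1.18 ± 0.28 and 1.14 ± 0.29 (adjusted p = 0.031 and 0.048, edgeR).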

How the data were processed

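Poly(A)-selected, directional RNA-seq libraries of mouse tumour organoids were made by the authors, and per the submitters' processing notes reads were quantified with Salmon 1.3.0 on mm10. The deposited values are estimated counts per gene, written as whole numbers, which the authors did not normalize. Annotation release, use of strand and the summing of transcripts into genes: not given in the sources used here. Of 54354 genes, 1243 carried no name and held 0.0216% of counts. They were not removed, so any that passed the filter on low counts entered library sizes and tests. Positions come from GENCODE M21 on mm10.

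The genes, lists and tests were chosen with earlier results of these data known. In R 4.3.3, edgeR 4.0.16 (TMM, filterByExpr, robust quasi-likelihood fits) was run separately on the 8 palmitic acid libraries, on the 27 carmofur libraries, on those 27 by block and on all 35. Adjusted p-values are Benjamini-Hochberg over all genes tested, with a threshold of 0.05. Named genes were those past it, and otherwise those with the lowest p in each comparison and role. DESeq2 1.42.0, other scalings and filters, and left-out libraries were alternatives. Fits were tested on simulated data. No columns within a group were identical among 178 pairs, and the closest pair differed by more than sampling noise (chi-square per degree of freedom 7.40).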

Additional observations from a re-analysis of the deposited data

Results flagged for a closer look

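In groups of 6 libraries, 4 of 69 gene and group combinations checked held a library far from the others, where chance gives about 1 in 20. Cdt1 stood at 124 CPM in carmofur control replicate 9, against 33.8 to 52.7 CPM in the other controls of block 3. Mcm4 stood at 44.7 CPM in carmofur control replicate 10, against 67.4 to 80.0 CPM in the others. Rfc3 stood at 214 CPM in carmofur replicate 1, against 98.8 to 127 CPM in the other carmofur libraries of block 1. Fen1 stood at 85.9 CPM in carmofur replicate 6, against 128 to 147 CPM in the others.

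The carmofur effect on Rpa1 differed between the 3 blocks (adjusted p = 0.043, edgeR). Every carmofur library lay on opposite sides of its control mean in a pair of blocks for 3 genes, and these pairs were not tested by themselves. The log2 fold changes were 0.43 in block 1, -0.71 in block 2 and 0.24 in block 3 for Mcm7. They were 0.63, -0.54 and 0.68 for Rpa1, and 0.85 in block 1 and -0.73 in block 2 for Gins1. With palmitic acid, Cdt1 lay below the control mean in all libraries of batch 1 and above it in both of batch 2, at -0.48 and 0.35, a difference that did not pass (adjusted p = 1.0, edgeR).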

How the results depend on the processing

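Over all carmofur libraries 4 members were called, and 8 with no filter on low counts (which moved the median of all genes by 0.12 on the log2 scale), 10 without the 3 libraries that stood apart, 7 with library block as a covariate and 1 (Ccne2) with counts summed over library sets. Leaving out library set 7 or 8 gave 9 and 7. Leaving out block 1, 2 or 3, chosen after seeing the data, gave 2, 11 and 2. Leaving out single libraries gave 4 to 9. In block 1 (2 called) RLE scaling gave 1, DESeq2 4, no filter 1 and the fit without the 3 libraries 0, and single libraries 0 to 3. In block 2 (2 called) RLE scaling, library-size scaling, a mean count of at least 10 and the fit without the 3 libraries each gave 1, no filter 0, and single libraries 0 to 2. In block 3 (5 called) library-size scaling, DESeq2 and a mean count of at least 10 each gave 8, as did the genes of the fit without blocks (added after seeing the data), the fit without the 3 libraries gave 9, and single libraries 3 to 8. For the difference between blocks (1 called) library-size scaling, the fit without the 3 libraries and the genes of the fit without blocks each gave 2, DESeq2 5, no filter 0, and single libraries 0 to 2. Palmitic acid batch 1 gave 0, or 1 (Pcna) without control replicate 3. Batch 2, the batches against each other and carmofur minus palmitic acid gave 0 throughout. Fen1 changed sign over all carmofur libraries only without block 1 (-0.03). The causes of these shifts were not tested. Same-numbered libraries of a treatment and its control did not deviate together (correlations from -0.026 to 0.047). Beyond replicates 1 to 3, same-numbered carmofur and control libraries lie in different blocks, and palmitic acid has few pairs. These correlations therefore cannot settle whether any libraries were paired. With the replicate block 3 members remained called with carmofur (Cdc6 was lost) and 0 with palmitic acid. Low depth limits Gins3, Dscc1 and the other scarce members.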
